A study of Mus musculus with 2 samples.

Results

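The 9 genes described here encode the start of the extrinsic clotting pathway and the plasminogen activation system: tissue factor (F3), coagulation factors VII and X (F7 and F10), urokinase and its receptor (Plau and Plaur), tissue plasminogen activator (Plat), plasminogen activator inhibitor 2 (Serpinb2), thrombospondin 1 (Thbs1) and the endothelial protein C receptor (Procr). They were chosen by symbol for their function, and all 9 were found among 55536 gene entries. They were measured by RNA-seq of polyadenylated RNA in cultured macrophages grown from bone marrow of C57BL/6J mice. The cells had received Lipid A, the part of bacterial lipopolysaccharide that activates the receptor Tlr4, at 100 ng/mL for 12 h. After 12 h without it, a second dose of the same concentration was given for 30 min before collection. The free-text label says Lipid A, whereas the treatment field and source name of the same samples say lipoprotein A. Both libraries, replicate 2 and replicate 1, received the whole sequence. An unstimulated library was not analysed here, so the values are levels after the second dose and do not measure induction. The labels number the libraries as biological replicates and give them biosamples of their own but the same donor entry. Nothing says that they came from separate animals, so their spread may be partly technical. Sex and age were not collected, per the labels.

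In blood clotting, tissue factor on a cell surface binds factor VII, and the complex activates factor X, which then generates thrombin with its cofactor. Clots are dissolved by plasmin, which urokinase and tissue plasminogen activator release from plasminogen and which Serpinb2 restrains by inhibiting urokinase. Macrophages exposed to bacterial products are a known source of tissue factor, and they use the urokinase receptor to hold urokinase at their surface during migration. The bulk of the circulating clotting factors comes from the liver.

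The libraries held 30780681 gene-assigned counts in replicate 2 and 41938419 in replicate 1. Macrophage markers were all present, with 8 of 8 at a TPM (transcript abundance relative to all transcripts of the library) of 1 or more in both libraries and summed levels of 18055 TPM in replicate 2 and 16333 TPM in replicate 1. Of the other cell types, 8 of 8 stromal, 2 of 8 endothelial, 2 of 8 platelet and 2 of 8 neutrophil markers reached 1 TPM in both libraries, and 0 of 6 hepatocyte markers did. The neutrophil markers summed to 9.88 TPM in replicate 2 and 75.3 TPM in replicate 1, and their part in any difference between the libraries was not tested. The cells were measured in bulk, so fewer cells of a type and less RNA per cell cannot be told apart. The libraries differed by far more than sampling noise, with a chi-square of 95.1 per degree of freedom over 13938 features, so they were counted as separate samples. A ribosomal RNA gene, itself among these features, took 4.25% of counts in replicate 2 and 1.37% in replicate 1. Such a gene can weigh heavily in the chi-square, which therefore does not give the difference of a typical gene. Levels are given as TPM, which divides by transcript length and can be compared between genes. Differences between libraries are given as log2 ratios of scaled counts, replicate 2 over replicate 1, with exact 95% intervals that cover counting error only. With 1 library on each side there was no test and no p-value.

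Promoter windows of 300 bases, from 250 before to 50 after the start site, were in the RefSeq table (GRCm38.p6, the same assembly as mm10) for 6 of the 9 genes. They are shown because 4 of the 6 share AP-1 letters, and were chosen after the values were seen. The start site is that of an annotated transcript for F3, F7, F10 (F10-202) and Serpinb2 (Serpinb2-201). For Plaur it is 24462483, while the annotated gene starts at 24462484. For Procr it is 155751217, inside the annotated gene, whose transcript Procr-201 starts at 155751117. Motif positions are counted from these RefSeq sites, so those of Procr are not distances from the start of Procr-201. Capitals mark every match, on either strand, to the motifs searched: TATAAA, AP-1 (TGANTCA), CRE (TGACGTCA), C/EBP (TTGCNNAA), the GC box (GGGCGG), the Ets core (GAGGAA), Egr1 (GCGGGGGCG or GCGTGGGCG), and NF-kB and the serum response CArG box by name. The Egr1 letters contain part of the GC box and can overlap it.
F3, chr3:121723287-121723586, forward strand: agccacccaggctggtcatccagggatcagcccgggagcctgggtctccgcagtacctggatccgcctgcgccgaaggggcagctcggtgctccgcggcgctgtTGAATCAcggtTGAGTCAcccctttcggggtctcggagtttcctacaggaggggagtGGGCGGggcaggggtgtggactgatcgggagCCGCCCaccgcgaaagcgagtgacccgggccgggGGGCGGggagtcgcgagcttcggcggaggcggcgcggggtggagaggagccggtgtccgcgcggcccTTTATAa
Plaur, chr7:24462233-24462532, forward strand: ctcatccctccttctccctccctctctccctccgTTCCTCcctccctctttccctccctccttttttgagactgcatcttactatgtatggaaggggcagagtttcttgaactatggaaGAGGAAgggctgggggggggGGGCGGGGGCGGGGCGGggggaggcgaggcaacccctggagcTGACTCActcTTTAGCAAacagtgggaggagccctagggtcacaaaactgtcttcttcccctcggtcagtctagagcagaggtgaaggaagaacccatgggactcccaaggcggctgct
Serpinb2, chr1:107511173-107511472, forward strand: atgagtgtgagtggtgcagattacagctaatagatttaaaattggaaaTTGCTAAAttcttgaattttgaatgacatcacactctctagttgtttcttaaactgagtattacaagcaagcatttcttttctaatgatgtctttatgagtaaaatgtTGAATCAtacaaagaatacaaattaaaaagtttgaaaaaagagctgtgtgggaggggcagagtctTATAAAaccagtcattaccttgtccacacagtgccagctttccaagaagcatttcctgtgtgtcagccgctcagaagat
Procr, chr2:155750967-155751266, forward strand: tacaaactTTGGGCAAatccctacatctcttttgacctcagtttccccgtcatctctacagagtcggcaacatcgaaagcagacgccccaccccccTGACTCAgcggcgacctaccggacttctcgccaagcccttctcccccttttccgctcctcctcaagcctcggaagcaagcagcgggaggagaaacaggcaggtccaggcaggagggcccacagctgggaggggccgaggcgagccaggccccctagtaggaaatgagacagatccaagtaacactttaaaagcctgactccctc
F7, chr8:13025784-13026083, forward strand: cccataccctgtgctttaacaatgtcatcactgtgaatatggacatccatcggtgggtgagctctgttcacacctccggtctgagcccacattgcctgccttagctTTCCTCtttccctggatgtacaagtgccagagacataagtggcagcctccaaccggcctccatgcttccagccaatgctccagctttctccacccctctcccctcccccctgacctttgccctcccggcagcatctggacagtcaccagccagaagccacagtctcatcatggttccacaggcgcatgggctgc
F10, chr8:13037058-13037357, forward strand: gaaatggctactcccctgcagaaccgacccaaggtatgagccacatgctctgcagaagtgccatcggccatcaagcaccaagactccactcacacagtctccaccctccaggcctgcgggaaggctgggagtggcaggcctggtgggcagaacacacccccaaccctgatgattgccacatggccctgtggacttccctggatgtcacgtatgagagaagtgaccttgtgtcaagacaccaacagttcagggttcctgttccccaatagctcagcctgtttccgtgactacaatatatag

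AP-1 letters, the core bound by Fos and Jun dimers, occurred in the windows of F3, Plaur, Serpinb2 and Procr and in neither that of F7 nor that of F10. Of 32817 promoter windows of the same length, 7.81% held them. F3 carried a pair of AP-1 matches, at -146 to -140 and at -135 to -129 from the start site, counted from 0 at that site. Plaur carried 1 at -69 to -63, Serpinb2 1 at -94 to -88 and Procr 1 at -154 to -148. Plaur also held 3 GC boxes, C/EBP letters (10.8% of windows), a pair of Ets cores (28.3%) and the Egr1 motif (3.47%). The Egr1 match, at -109 to -101, overlaps the GC boxes at -111 to -106 and at -105 to -100. C/EBP letters were also in the windows of Serpinb2 (-202 to -195) and Procr (-242 to -235). GC boxes, present in 35.6% of all windows, were found 3 times in F3, whose window was 70.3% G and C. Serpinb2 was the opposite in base content, with 35.3% G and C. It held a TATA match at -29 to -24 (13.6% of windows), and F3 held TATA letters too, at 43 to 48, after its start site. F7 held a single Ets core and F10 no match. No window of the 6 genes held the NF-kB, CRE or CArG letters searched, which 8.46%, 1.79% and 1.63% of all windows held. The NF-kB pattern had to begin with GGG and end with CC, so looser NF-kB-like letters would not be marked. The absence says only that the searched letters are not in these 300 bases. A match is a description of sequence and not evidence of binding.

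**Figure D1:**
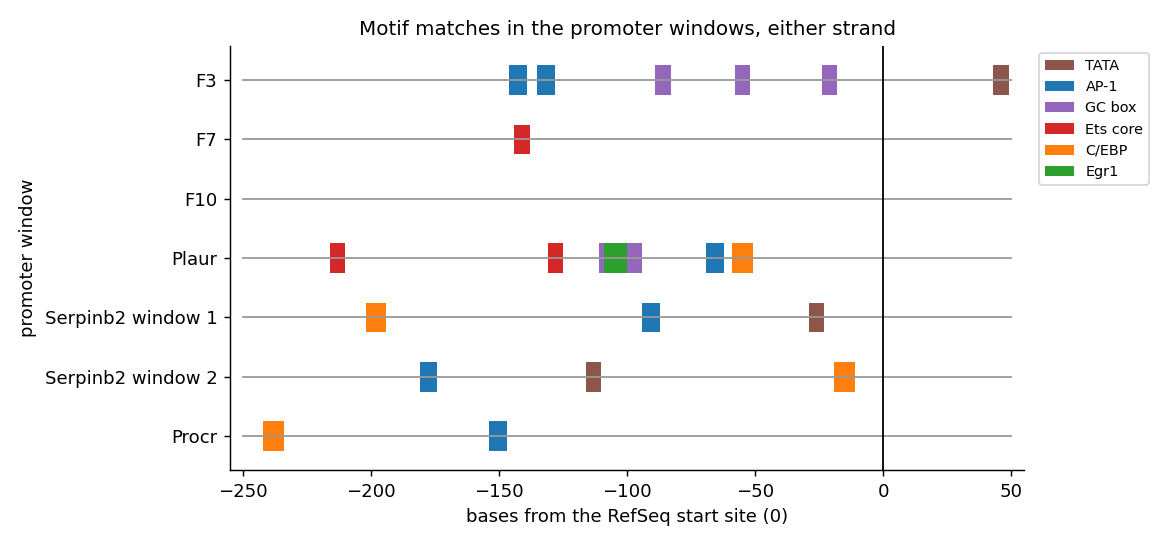
Motif matches on either strand in the promoter windows of 6 genes, plotted against bases from the RefSeq start site, with Serpinb2 shown for both of its RefSeq start sites. AP-1 matches (blue) are on every line but those of F7 and F10, and F10 has no match of any kind.

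All 9 genes reached 1 TPM in both libraries, against 48.7% of 22028 protein-coding genes. The genes were chosen with earlier results of these data known, so nothing is read from that difference. Replicate 2 had a median of 7.76 TPM over the 9 genes and replicate 1 a median of 6.44 TPM. For the 10727 protein-coding genes detected in both libraries the medians were 16.4 TPM (replicate 2) and 17.5 TPM (replicate 1). By mean level, Thbs1, Plau and F10 stood above the midpoint of those genes and the other 6 below it. Thbs1 made up 62.8% of the summed TPM of the 9 genes in replicate 2 and 67.2% in replicate 1, and Thbs1 with Plau made up 80.3% and 81.8%.

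The order by mean level was Thbs1, Plau, F10, Procr, Plaur, F7, F3, Plat and Serpinb2. The values of the libraries overlapped between Procr and Plaur and between Plaur and F7, so by their ranges those neighbours were not separated. Within each library, Procr stood above Plaur, at 11.1 and 7.76 TPM in replicate 2 and 6.44 and 5.58 TPM in replicate 1. Plaur and F7 changed order, at 7.76 and 5.46 TPM in replicate 2 and 5.58 and 7.80 TPM in replicate 1. The other 6 neighbouring pairs did not overlap. By mean level, all 8 neighbouring pairs stood in the same order in a second quantification made from the FASTQ files.

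**Figure D2:**
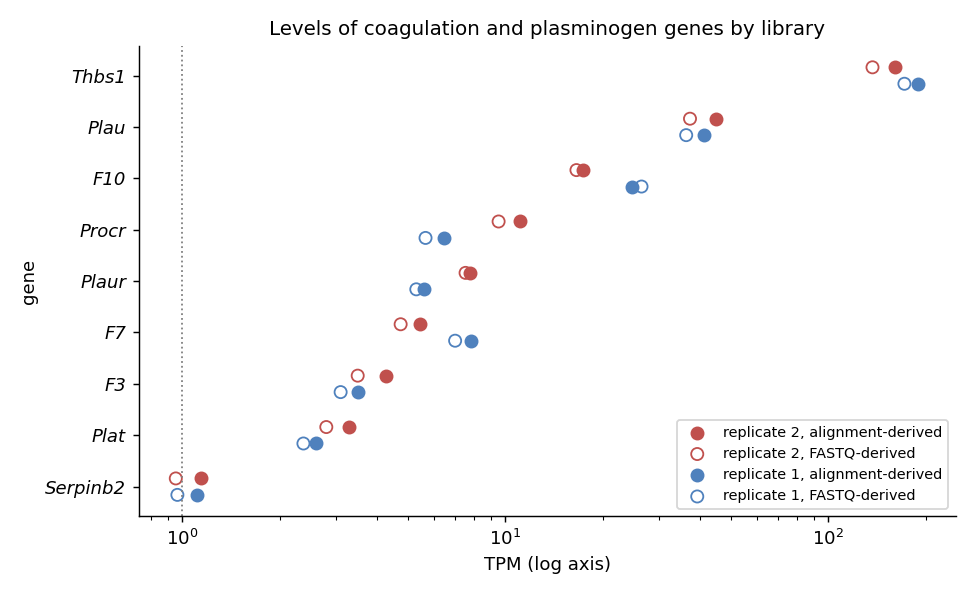
TPM of each gene on a log axis, with replicate 2 (red) above replicate 1 (blue), filled points for the alignment-derived table and open points for the FASTQ-derived table. Thbs1 is highest at 161 and 190 TPM, and Serpinb2 sits at the dotted line of 1 TPM.

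Tissue factor itself was low. F3 (ENSMUSG00000028128.13, chromosome 3, 121723537 to 121735048, forward strand, mm10, as for all coordinates here) had 4.26 TPM on 144 counts in replicate 2 and 3.49 TPM on 153 counts in replicate 1, a mean of 3.88 ± 0.544 TPM (SD, n = 2). It ranked 9029th of 22028 protein-coding genes by mean TPM, above 15.8% of the detected ones. Its ratio between the libraries was 0.37 (interval 0.03 to 0.70), and 23.3% of all counted genes were at least as far apart. Replicate 2 was the higher by 1.29-fold.

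The serine proteases that act with tissue factor were more abundant than F3. F7 (ENSMUSG00000031443.7, chromosome 8, 13026034 to 13035809), the zymogen that tissue factor binds, had 5.46 TPM in replicate 2 and 7.80 TPM in replicate 1 (6.63 ± 1.65 TPM, SD, n = 2). F10 (ENSMUSG00000031444.16, chromosome 8, 13037308 to 13056676), which the complex activates, had 17.4 TPM in replicate 2 and 24.6 TPM in replicate 1 (SD 5.06 TPM, n = 2). Both genes were lower in replicate 2, with 1 value per library. F7 had a ratio of -0.47 (interval -0.74 to -0.21) on 183 and 347 counts, and F10 a ratio of -0.41 (-0.55 to -0.27) on 631 and 1148 counts.

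F7 and F10 lie next to each other on the same strand, 1498 bases apart. Their levels kept nearly the same proportion in both libraries. F10 stood at 3.19 times the TPM of F7 in replicate 2 and at 3.15 times in replicate 1, and in the FASTQ-derived table at 3.51 and 3.77 times. Pairs on different chromosomes varied. Plau stood at 39.3 and 37.2 times Serpinb2, and at 39.1 and 37.6 times in the FASTQ-derived table, with Serpinb2 on only 41 and 53 counts. Relative to Plaur, Plau stood at 5.77 and 7.39 times. A link between position and level was not tested. The neighbours on either side were far lower. Mcf2l, 5128 bases before F7, had 0.980 TPM in replicate 2 and 0.910 TPM in replicate 1, and Proz, the gene of protein Z, 4237 bases after F10, had 0.380 and 0.390 TPM. Proz had a ratio of 0.02, with a wide interval of -0.80 to 0.80 on 25 and 34 counts, and Mcf2l had 59 and 65 counts. Relative to F3 the proportion did move, with F10 at 4.09 times and F7 at 1.28 times the TPM of F3 in replicate 2, against 7.04 and 2.23 times in replicate 1. Hepatocyte markers were at or near 0 beside these genes: Alb, Apoa1, Ttr, Serpina1a and Fabp1 had 0 counts in both libraries, and Apoa2 had 2 and 4 counts.

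Procr (ENSMUSG00000027611.12, chromosome 2, 155751117 to 155755471), the receptor that presents protein C for activation, differed most between the libraries. It had 11.1 TPM on 294 counts in replicate 2 and 6.44 TPM on 225 counts in replicate 1 (8.76 ± 3.27 TPM, SD, n = 2). Its ratio of 0.84 (0.58 to 1.10) amounted to 1.79-fold and was exceeded or matched in size by 4.17% of counted genes. Procr is also an endothelial gene, and the endothelial markers had a summed level of 25.8 TPM in replicate 2 and 12.0 TPM in replicate 1. Kdr, the receptor for vascular endothelial growth factor, was the highest of them, at 20.8 TPM in replicate 2 and 5.57 TPM in replicate 1. Pecam1 and Cdh5 went the other way, at 3.28 and 4.61 TPM and on 41 and 82 counts. Egfl7 stood at 0.970 and 0.130 TPM, Emcn and Tek were at 0.130 TPM or lower, and Tie1 and Esam had 0 counts in replicate 2 and 2 and 1 counts in replicate 1. The part of these endothelial transcripts in the Procr difference was not tested.

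Urokinase was abundant and its receptor was not. Plau (ENSMUSG00000021822.3, chromosome 14, 20836660 to 20843385), which converts plasminogen to plasmin, had 44.8 TPM on 1964 counts in replicate 2 and 41.3 TPM on 2394 counts in replicate 1 (43.0 ± 2.49 TPM, SD, n = 2). It stood above 73.1% of detected protein-coding genes, and its ratio of 0.17 (0.08 to 0.25) was matched or exceeded in size by 56.2% of counted genes. Plaur (ENSMUSG00000046223.10, chromosome 7, 24462484 to 24475968), the surface receptor that anchors urokinase, had 7.76 TPM in replicate 2 and 5.58 TPM in replicate 1 (6.67 ± 1.54 TPM, SD, n = 2). Its ratio was 0.51 (0.21 to 0.81) on 193 and 186 counts. Plau was therefore 5.77 times the TPM of Plaur in replicate 2 and 7.39 times in replicate 1.

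The second plasminogen activator, Plat (ENSMUSG00000031538.6, chromosome 8, 22757727 to 22782844), was much lower than Plau. It had 3.29 TPM on 158 counts in replicate 2 and 2.59 TPM on 164 counts in replicate 1 (2.94 ± 0.495 TPM, SD, n = 2), with a ratio of 0.40 (0.08 to 0.72). Plau exceeded it 13.6-fold in replicate 2 and 15.9-fold in replicate 1. Serpinb2 (ENSMUSG00000062345.10, chromosome 1, 107511423 to 107535478), the intracellular and secreted inhibitor of urokinase, was the lowest of the 9. It had 1.14 TPM on 41 counts in replicate 2 and 1.11 TPM on 53 counts in replicate 1 (1.12 ± 0.0212 TPM, SD, n = 2). Its ratio was 0.09 (-0.54 to 0.70), an interval that holds 0 and is also wide. Plau stood at 39.3 times the TPM of Serpinb2 in replicate 2 and 37.2 times in replicate 1. In the FASTQ-derived table Serpinb2 had 0.954 and 0.965 TPM, just under the bound of 1 TPM.

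Thbs1 (ENSMUSG00000040152.8, chromosome 2, 118111876 to 118127133), a secreted glycoprotein of platelets and matrix that activates latent TGF-beta and binds Cd36 and Cd47, was the most abundant. It had 161 TPM on 19004 counts in replicate 2 and 190 TPM on 29680 counts in replicate 1 (175 ± 20.7 TPM, SD, n = 2), and ranked 787th of 22028 protein-coding genes. Its ratio was -0.19 (-0.22 to -0.16), an interval made narrow by its counts, and 51.3% of counted genes were at least as far apart. Platelet markers summed to 117 TPM in replicate 2 and 264 TPM in replicate 1, nearly all of it Pf4, a chemokine gene of platelets and macrophages, at 115 and 259 TPM. Ppbp, the other platelet marker detected, had 1.00 TPM on 17 counts in replicate 2 and 2.37 TPM on 54 counts in replicate 1. Gp9, Gp6, Gp5, Gp1ba, Gp1bb and Itga2b, which encode platelet receptors, were each below 1 TPM in both libraries, and Gp9 had 0 counts in replicate 2. Stromal markers, which mark cells that also make Thbs1, Plau and Plat, summed to 740 TPM in replicate 2 and 654 TPM in replicate 1, with a median ratio of 0.25 and all 8 higher in replicate 2. Col1a1 led them at 243 and 214 TPM, and none was at 0. The part of platelet or stromal RNA in the level of Thbs1, or of any other gene described here, was not tested.

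Across the 9 genes, 6 were higher and 3 lower in replicate 2, and 0 were at least 2-fold apart. Among 12471 genes with at least 20 counts in each library, 2.48% were at least 2-fold apart, 1.96% in the higher and 0.521% in the lower direction, so a count of 0 among 9 lies near the background. The interval lay above 0 for 5 genes (Procr, Plaur, Plat, F3 and Plau) and below 0 for 3 (F7, F10 and Thbs1). It held 0 for Serpinb2. The intervals cover counting error only, and the share of all counted genes with such intervals was not computed. Nothing is therefore read from these numbers. The median ratio was 0.17, against -0.02 over all counted genes, and the median size of the ratio without its sign was 0.40, against 0.20. Only Procr lay outside the central 90% of counted genes, which ran from -0.50 to 0.67.

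**Figure D3:**
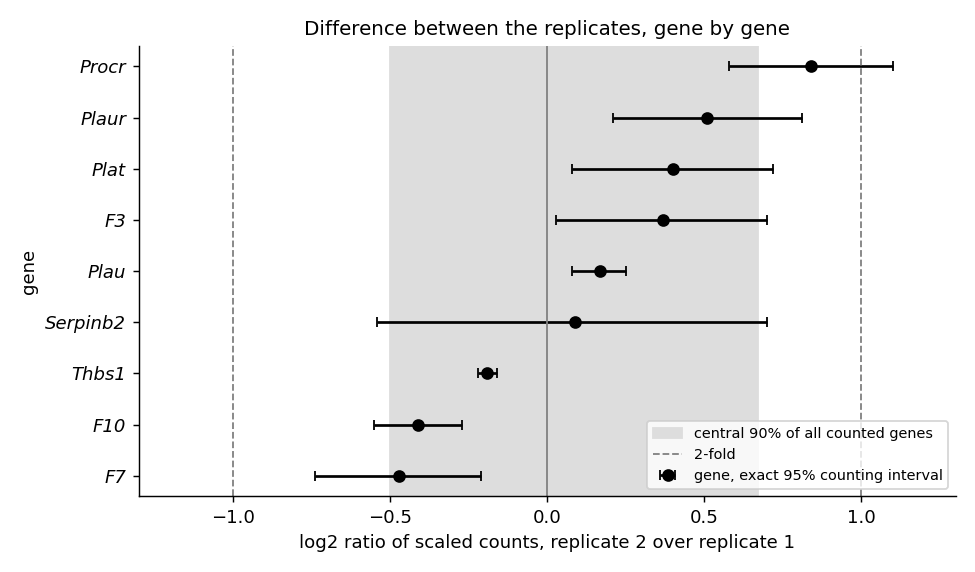
Log2 ratio of scaled counts, replicate 2 over replicate 1, with exact 95% counting intervals, beside the central 90% of 12471 counted genes (grey) and 2-fold lines (dashed). Procr is highest at 0.84 and F7 lowest at -0.47, and no gene reaches 2-fold.

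Early response genes differed between the same libraries by more. The list holds 17 genes, among them Fos, Egr1, Tnf and Il1b. Replicate 2 was higher for all 17 and at least 2-fold higher for 14, and the median ratio was 1.38. Tissue factor, Plaur, Serpinb2 and Thbs1 are also known as rapidly inducible genes, and their ratios of 0.37, 0.51, 0.09 and -0.19 were all below that median. The nearest of the early genes were Atf3 at 0.35 (0.31 to 0.39), Jun at 0.44 (0.39 to 0.49) and Ier3 at 0.52 (0.44 to 0.59). The early list was chosen with earlier results of these data known, and the difference between the lists was not tested.

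The genes differed in how their RNA was divided among annotated transcripts, as estimated in the FASTQ-derived table. Thbs1, Plau, Plat, F3 and F7 were nearly all a single coding transcript, with a share of 97.5% or more in both libraries. F7 has 1 annotated transcript. F10 has 5, all coding, led by F10-201 (1903 bases, 9 exons) at 74.3% in replicate 2 and 68.6% in replicate 1. The longer F10-202 (2503 bases), whose annotated start is that of the promoter window shown, took 13.8% and 9.41%, and the short F10-203 took 3.19% and 12.4%. In the alignment-derived table F10-202 took 26.5% and 16.4% and F10-203 2.13% and 0%, so the shares of the minor F10 transcripts depend on the quantification.

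Part of the Plaur RNA was assigned to transcripts that keep an intron. Its coding transcript Plaur-201 (7 exons) took 72.7% in replicate 2 and 87.1% in replicate 1, and the retained-intron transcript Plaur-202 took 17.4% and 9.31%. These shares rest on 21.8 and 10.6 estimated counts for Plaur-202, and the alignment-derived table gave it 8.26% and 6.81%. Procr-201 took 85.1% and 85.2% of Procr. Serpinb2 was divided between a pair of coding transcripts of 8 exons each with separate start sites at 107511423 and 107511497 on chromosome 1. Serpinb2-201 took 54.1% in replicate 2 and 69.6% in replicate 1, and Serpinb2-202 took 45.9% and 30.4%, on 17.2 to 38.8 estimated counts each. The alignment-derived table gave Serpinb2-201 100% and 82.9%, so this division is uncertain at the present depth. Serpinb2 overlaps Serpinb10 on the same strand, which had 1 and 4 counts, and the lincRNA Gm29233 opposite Thbs1 had 0. The posterior SD of the deposited gene counts was 0 for all 9 genes in both libraries, meaning that the count of each gene did not vary in that estimate.

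**Figure D4:**
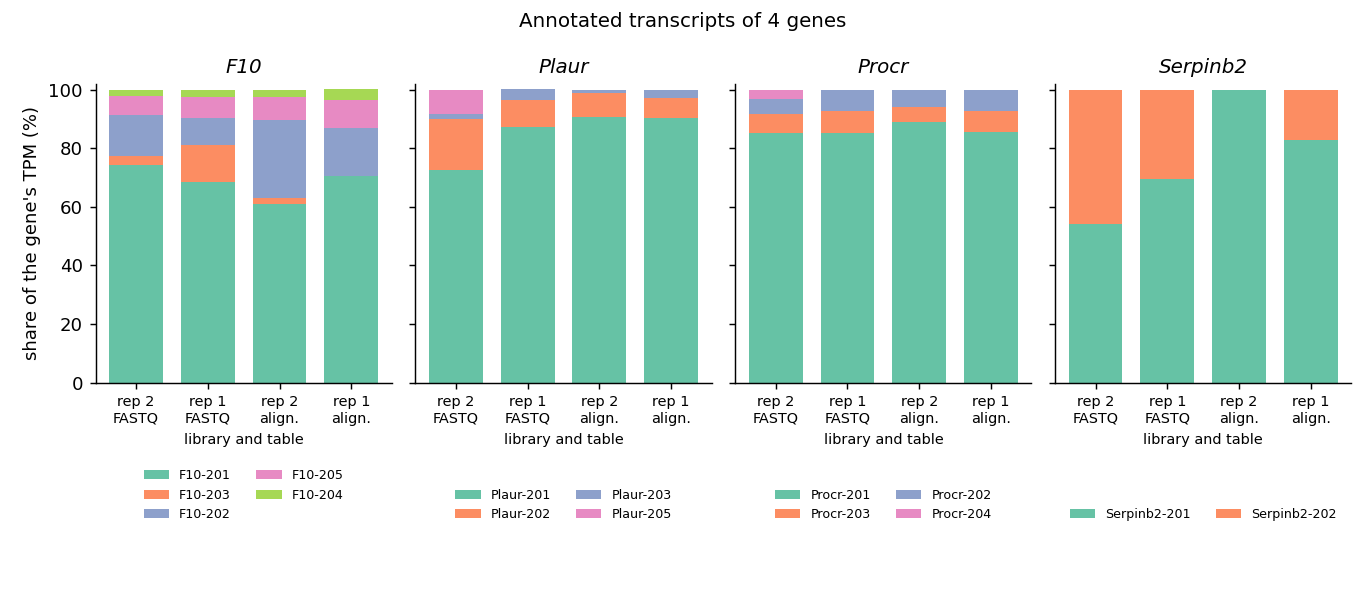
Share of each gene's TPM by annotated transcript for F10, Plaur, Procr and Serpinb2, in replicate 2 and replicate 1, from the FASTQ-derived and alignment-derived tables. Procr-201 stays between 85.1% and 88.8% in all 4 bars, whereas Serpinb2-201 runs from 54.1% to 100%.

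Of 78 other genes of the wider pathway in 9 lists, 36 (46.2%) were detected at 1 TPM in both libraries, a share near the 48.7% of all protein-coding genes, and 21 had 0 counts in both, which allows up to 0.0975 CPM (counts relative to the library total) in replicate 2 and 0.0715 CPM in replicate 1. Of the 43 with at least 20 counts in each library, 24 were higher and 19 lower in replicate 2, with a median ratio of 0.06. At least 2-fold apart were 3 of the 43, or 6.98%, beside 2.48% of all 12471 counted genes. The 3 were Vwf, Nqo1 and Cd36, and the difference between the shares was not tested.

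Among 14 coagulation factors and fibrinogen genes, 9 had 0 counts in both libraries, including F2, the gene of prothrombin, and the 3 fibrinogen chains Fga, Fgb and Fgg. F5, the cofactor of factor X, had 4 and 9 counts. Vwf, von Willebrand factor, was highest at 9.00 TPM in replicate 2 and 2.88 TPM in replicate 1, a ratio of 1.44 (1.27 to 1.62), beside the endothelial values given for Procr. F13a1, the transglutaminase subunit of factor XIII that macrophages are known to make, stood at 1.11 and 0.850 TPM, and F8 at 0.740 and 0.670 TPM. Their ratios were 0.44 (-0.01 to 0.88) for F13a1 and 0.10 (-0.42 to 0.60) for F8, and both intervals hold 0.

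Of 11 anticoagulant genes 4 were detected. Anxa5, which covers phosphatidylserine, led at 318 TPM in replicate 2 and 366 TPM in replicate 1. Tfpi, the inhibitor of the tissue factor and factor VII complex, had 8.11 and 12.6 TPM, above F3 in both libraries, and a ratio of -0.64 (-0.85 to -0.44). Pros1, the cofactor of activated protein C, had 7.32 and 7.85 TPM, while Proc, the gene of protein C itself, had 0 counts, as had Serpind1, Serpina5 and Serpina10. Of 4 enzymes listed for the vitamin K cycle, which carboxylates factors VII and X, 3 were detected. All 4 had at least 20 counts. Vkorc1 stood at 21.7 and 22.7 TPM, Vkorc1l1 at 9.21 and 10.1 TPM and the carboxylase Ggcx at 8.19 and 6.17 TPM. Nqo1, a quinone reductase, was lowest at 3.63 and 0.890 TPM, with a ratio of 2.05 (1.48 to 2.69). Of 4 protease-activated receptors only F2r, the thrombin receptor, was detected, at 6.58 TPM in replicate 2 and 4.97 TPM in replicate 1. F2rl2 and F2rl1 had at most 18 counts, and F2rl3 had 0.

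Plasminogen itself, Plg, had 0 counts. Of 8 genes in its list 2 were detected, led by Serpine2, an inhibitor of the activators, at 16.8 TPM in replicate 2 and 15.2 TPM in replicate 1. A2m had 0.200 and 0.140 TPM, and Cpb2 and Hrg had 0 counts. Serpine2 thus stood above Serpinb2 and below Plau in each library. By contrast 11 of 12 plasminogen receptors and partners of the urokinase receptor were detected, with medians of 159 TPM in replicate 2 and 155 TPM in replicate 1. Anxa2 had 399 and 494 TPM, Itgb2, the beta chain of the Mac-1 integrin that binds the urokinase receptor, 319 and 434 TPM, and Eno1 244 and 240 TPM. Vtn, the gene of vitronectin, had 0 counts.

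Of 13 other clade B serpins 4 were detected, and Serpinb6a was far above Serpinb2 at 334 TPM in replicate 2 and 422 TPM in replicate 1. Serpinb9 followed at 25.2 and 23.4 TPM and Serpinb8, the nearest coding gene downstream of Serpinb2, at 9.64 and 12.5 TPM. Serpinb7, the nearest upstream, had 0 counts, as had Serpinb11 and Serpinb13. Thbs2, a close relative of Thbs1, had 18.6 and 16.4 TPM, and Thbs4 was lowest of its list at 0.210 and 0.240 TPM. Of the receptors of Thbs1, Cd47 stood at 542 and 573 TPM, whereas Cd36 stood at 41.1 TPM in replicate 2 and 145 TPM in replicate 1, a ratio of -1.76 (-1.82 to -1.69). All 6 genes linked to the exposure of phosphatidylserine and to surface disulphide exchange were detected, led by the disulphide isomerases Pdia3 at 339 and 331 TPM and P4hb at 272 and 295 TPM, followed by the scramblase Ano6 at 41.4 and 59.7 TPM. Xkr8 was lowest at 6.18 and 5.43 TPM.

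**Figure D5:**
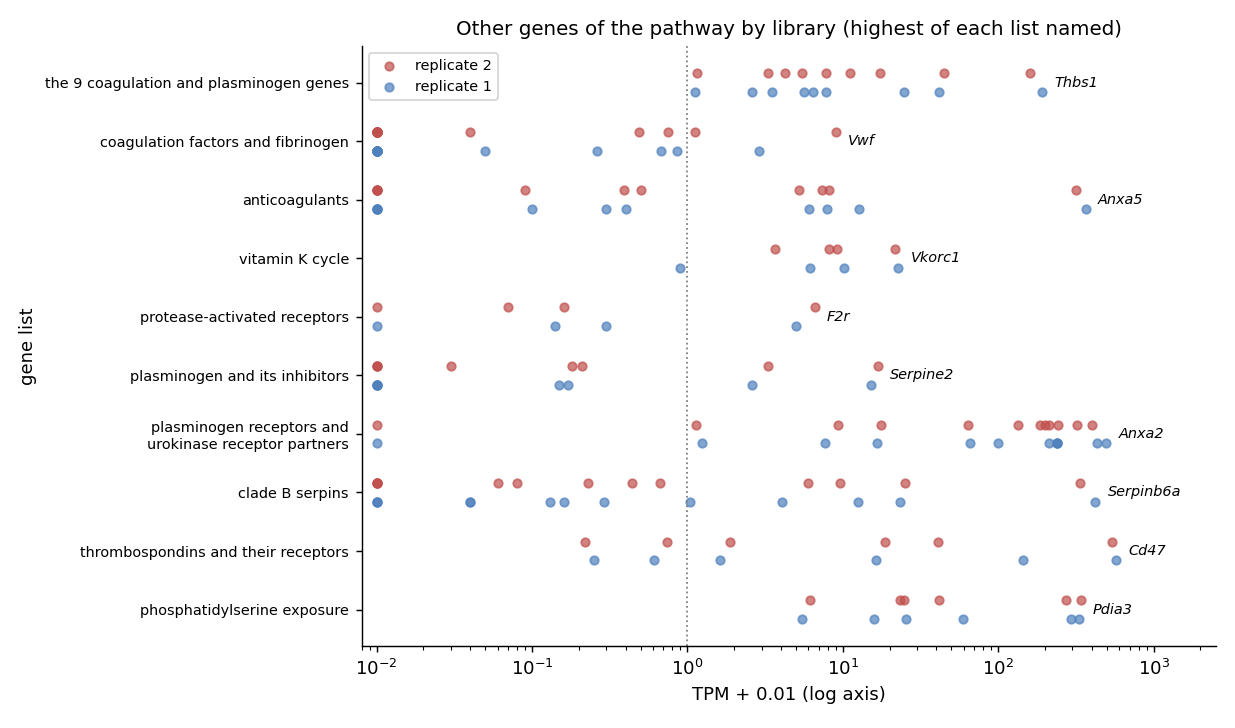
TPM + 0.01 on a log axis for the 9 genes and for 78 other genes in 9 lists, replicate 2 (red) above replicate 1 (blue), with the highest gene of each row named and 1 TPM dotted. Points at the left edge are genes at 0 TPM, and Cd47, Anxa2, Serpinb6a, Anxa5 and Pdia3 lie above Thbs1.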

How the data were processed

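RNA-seq of polyadenylated RNA was analysed for 2 libraries of 1 group. The authors deposited 3 tables per library, quantified on mm10 with GENCODE M21, per the deposited notes: gene and transcript tables of expected counts and TPM from a transcriptome alignment, and a transcript table, built on 4 FASTQ files, that holds estimated counts and TPM. Strand handling, aligner, counting tools and their versions: not given in the sources used here. Reads of genes that overlap, antisense ones included, may therefore be mixed. The deposited gene table also holds a posterior SD of each count, per the file headers.

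Levels and ratios were taken from the gene table made by alignment. Entries that name no gene took 0.0667% of counts in replicate 2 and 0.0526% in replicate 1 and stayed out of library sizes. Expected counts were rounded and scaled by TMM in edgeR 4.0.16 under R 4.3.3. Total counts and the size factors of DESeq2 1.42.0 were alternatives. Ratios had 0.5 added to counts. Their intervals, and the limit that a count of 0 allows (3 counts), cover counting error only, since reads are not independent molecules. Detection meant 1 TPM in both libraries, and a ratio was counted from 20 counts in each library, with a 2-fold rule in place of a test. The ratio step was tested on simulated data. The FASTQ-derived estimated counts and TPM were summed per gene, and coordinates came from GENCODE M21. Other steps used pandas 2.3.3, numpy 2.4.6 and scipy 1.17.1 in Python 3.11.15, and matplotlib 3.10.9 drew the figures.

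The members, gene lists and motifs were chosen with earlier results of these data known. Named were all 9 members and, in each list, the 3 highest genes, the lowest, those at 0 counts where 4 or fewer, and those at least 2-fold apart. F2, Fga, Fgb, Fgg, F5, A2m, F2rl1, Serpinb10, Proz and the markers and early genes given as examples were named as context. A gene that this rule names is not reported here. The planned comparison of protein sequences was not run.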

Additional observations from a re-analysis of the deposited data

How the results depend on the processing

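No gene of the 9 changed the sign of its ratio under DESeq2 size factors, total counts, 5 added to counts or FASTQ-derived counts. The extremes were Procr at 0.83 to 0.84 and F7 at -0.47 to -0.45. Thbs1 alone left its counting interval of -0.22 to -0.16, at -0.23 with FASTQ-derived counts. The median level of the 9 genes, 6.67 TPM, was 7.76 and 6.44 TPM when replicate 1 or replicate 2 was left out. It was 6.41 TPM in the FASTQ-derived table and 7.57 TPM when TPM was rescaled over nuclear protein-coding genes. By gene, 4 of the 9 levels (F3, Plau, Serpinb2 and Thbs1) moved by more than their SD in the FASTQ-derived table. On rescaling 3 did (Plau, Serpinb2 and Thbs1). The number detected was 9, and 8 in the FASTQ-derived table, where Serpinb2 was under the bound, 9 at 0.5 TPM and 6 at 5 TPM. The number of all genes at least 2-fold apart, 309, was 136 with at least 100 counts in each library and 5598 without a filter. Without the filter, every gene with a count in either library enters, however few its counts. The cause of the change in number was not tested. The median share of the leading transcript, 98.4%, was 98.0% in the alignment-derived transcript table. For Serpinb2 that share, 61.8%, was 91.4% there. Depth limits Serpinb2 most, at 41 and 53 counts. No paired analysis was possible because there is a single group.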
